A study of Mus musculus with 7 samples.

Results

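Translation factors and aminoacyl-tRNA synthetases were taken from the array by gene symbol. No gene was picked by its own values, but the set was chosen with earlier results of these data known. Of 20355 probes in the deposited table, 14030 were annotated with 1 gene symbol. Among these, 95 probes of 66 genes belonged to the translation set, out of 9930 genes named in all. Initiation factors (symbols from Eif1 to Eif6, without the Eif2ak kinases) had 49 probes of 35 genes, elongation and termination genes (Eef1, Eef2 and Etf1) had 17 probes of 9 genes, and synthetases had 29 probes of 22 genes. The symbols also took in a few regulators: the 4E-binding proteins Eif4ebp1 and Eif4ebp3, and Eef1akmt1 and Eef1aknmt, which methylate elongation factor eEF1A. Testing needed 3 or more values from the 3 h arrays and 2 or more from the 10 h arrays, which 56 of the 95 probes had (47 genes).

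Translation begins when initiation factors place a small ribosomal subunit with its initiator tRNA on an mRNA. The eIF4 proteins bind the cap, eIF3 holds the subunit, and eIF2 with its exchange factor eIF2B delivers the initiator tRNA. The eEF1 factors then bring charged tRNAs, eEF2 moves the ribosome along, and Etf1 ends synthesis at a stop codon. Synthetases load each amino acid onto its tRNA, with separate enzymes in cytosol and mitochondria for most amino acids. Several cytosolic synthetases sit together in a multi-synthetase complex, and many synthetase genes are known targets of the stress-responsive factor ATF4. In growing fibroblasts many of these genes are expressed at high levels to feed protein synthesis, which ratios cannot show.

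The cells were NIH3T3, an immortalised line of mouse embryonic fibroblasts, that overexpressed Acid1. Each array carried cDNA of treated cells in 1 dye and of non-treated cells in the other, with 4 arrays at 3 h and 3 arrays at 10 h after treatment. The treated sample was in Cy5 on replicates 1 and 2 of both times and in Cy3 on replicates 3 and 4 at 3 h and on replicate 3 at 10 h. The labels do not say what the treatment was, what Acid1 stands for, how it was expressed, or whether 1 clone or several were used. Nothing says that each array had a culture of its own, and the p-values therefore speak of array-to-array spread, possibly a technical one. Values are log2 ratios and were read as treated over non-treated cells, so that 1 stands for a doubling. The labels do not state that direction. It was taken because the repeated extreme value described below was positive on every array with the treated sample in Cy5 and negative on every array with it in Cy3. These signs do not settle the direction, since they could arise under either reading. Over all tested probes, arrays of unlike dye orientation had correlations of -0.0561 and -0.0967 at 10 h and of 0.0537 to 0.105 at 3 h. If the ratios were instead Cy5 over Cy3, the arrays with the treated sample in Cy3 would change sign and the others would not, and results are given for that reading where they differ. In RNA of whole cultures, fewer cells of a type and less RNA per cell cannot be told apart.

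A ratio gives no level, so the identity of the cells could only be checked by which probes gave a signal. The 24 probes of 11 fibroblast markers had a median of 7 arrays with a value, and the 25 probes of 17 markers of other cell types had a median of 5. At 3 h the tested markers had a median fitted ratio of 0.122 over 21 fibroblast probes, 12 above 0, and of -0.707 over 8 probes of other cell types, 2 above 0, and at 10 h of -0.114 and -0.0743. In limma 0 of them passed an adjusted p under 0.05 at either time, and at 3 h 2 and 3 had an unadjusted p under 0.05. Of all tested probes 13.6% had an unadjusted p under 0.05 at 3 h in limma, and 38.6% were above 0. The median over all tested probes was -0.149 at 3 h and -0.0245 at 10 h. The part of these markers in the members' values was not tested. On each array 1 repeated extreme value, on 163 to 1614 spots, was treated as not measured. At 3 h between 45.8% and 55.6% of the values of tested probes were, once a constant of the array was taken off, the log2 of 1 whole number over another, neither above 8. At 10 h that share was 8.2% to 9.47%. Such values are here called small-ratio values. Intensities were not analysed here. Of all 20355 probes, between 13262 and 17766 had a value on an array.

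Because synthetase genes are known ATF4 targets, their promoters (RefSeq, GRCm38.p6, 250 bases before each start) were searched for TGATGNAA, the core of the C/EBP-ATF element, on both strands. Promoters were held for 47 of the 66 genes, 56 in all. The core was found in 3 of 16 synthetase promoters (18.8%), in 1 of 35 initiation promoters (2.86%) and in 0 of 5 promoters of elongation and termination genes, against 3.45% of all 32851 promoters. All of these matches lay on the strand opposite to the gene. They are shown 5′ to 3′ along the gene with the match in capitals. Among the members whose promoters were held, they set Aars, Gars, Tars and Eif2s3x apart from the others. They come from chr8:111033714-111033753 (plus strand), chr6:55037955-55037994 (plus strand), chr15:11399659-11399689 (minus strand) and chrX:94212724-94212763 (minus strand), in that order.
Aars: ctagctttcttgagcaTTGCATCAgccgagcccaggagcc
Gars: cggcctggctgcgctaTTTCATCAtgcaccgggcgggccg
Tars: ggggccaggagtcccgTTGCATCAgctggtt
Eif2s3x: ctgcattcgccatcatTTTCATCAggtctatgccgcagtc
The matches began 112, 30, 15 and 96 bases before the start. Of the 4 genes, only Gars was measured on enough arrays to be tested, and its values are given with the synthetases. A start-site run of a C followed by 4 or more C or T, the mark of terminal oligopyrimidine mRNAs, within 5 bases of the start was found in 10 of the 56 promoters (17.9%) and in 18.3% of all promoters. A match in a promoter is a description of its letters and not of a bound site.

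At each time the comparison asked which of these mRNAs had a ratio other than 0. No translation factor or synthetase passed the threshold at either time. With limma and an adjusted p under 0.05, 0 of 56 member probes passed at 3 h, 0 at 10 h and 0 in the difference of the times, and of all 11559 probes tested 0.0% passed in each comparison. The smallest adjusted p among the members was 0.254 at 3 h, 1.0 at 10 h and 0.569 for the difference. At an unadjusted p under 0.05, 5 of 56 member probes passed at 3 h (8.93%, against 13.6% of all probes), 1 at 10 h (1.79%, against 3.88%) and 1 in the difference (1.79%, against 8.11%). On this reading each share was below that of all probes. At 3 h Eif4e and Mars1 were the 2 above 0 (3.57%, against 3.13% of all probes), and Eif3j1, Eif3m and Iars2 were the 3 below 0 (5.36%, against 10.5%). At 10 h Mars1 was the 1 below 0 (1.79%, against 2.32%) and 0 were above 0 (against 1.56%). In the difference Mars1 was again the 1 below 0 (1.79%, against 2.74%), with 0 above 0 (against 5.37%). On the Cy5 over Cy3 reading 0 members passed the adjusted threshold in limma, and 5, 1 and 2 had an unadjusted p under 0.05 in the same order (8.93%, 1.79% and 3.57%, against 7.89%, 5.43% and 5.34% of all probes). The share at 3 h was then above that of all probes.

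With ratios read as treated over non-treated, the median of each group was above that of all probes at both times. This depended on that reading. As Cy5 over Cy3 each group was below all probes at 10 h. At 3 h initiation and elongation and termination were then nearly level with all probes. The median fitted log2 ratio at 3 h was 0.112 over the 32 initiation probes, 0.069 over the 9 elongation and termination probes and 0.052 over the 15 synthetase probes, against -0.149 over all probes tested. Of all 56 probes 33 were above 0 (58.9%), against 38.6% of all probes. At 10 h the medians were 0.0184, 0.21 and 0.065, against -0.0245, and again 33 of 56 were above 0 (58.9%), against 46.5%. At 3 h 6 of 56 were above 0 on every array with a value (10.7%, against 7.09% of all probes) and 2 were below 0 on every one (3.57%, against 16.4%). At 10 h 5 of 56 were below 0 on every array with a value (8.93%, against 16.3%).

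With the ratios as Cy5 over Cy3 the 3 h medians were 0.037 for initiation, 0.0265 for elongation and termination and 0.209 for the synthetases, against 0.0262 over all probes. The first 2 were thus within 0.0108 of all probes, and the excess at 3 h was left in the synthetases alone. Of all 56 members 32 were then above 0 at 3 h (57.1%, against 52.0% of all probes) and 32 at 10 h (57.1%, against 55.5%). At 10 h the medians were 0.0254, -0.0129 and 0.0185, against 0.0369 over all probes, so that each group lay below all probes on that reading.

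By array, the initiation median less the median of all tested probes was 0.177, 0.157, 0.0935 and 0.349 on replicates 1 to 4 at 3 h, above on 4 of 4 arrays, and 0.059, 0.01 and 0.002 at 10 h. For elongation and termination it was 0.236, 0.527, -0.0025 and 0.263 at 3 h and 0.101, 0.033 and 0.367 at 10 h. For the synthetases it was 0.491, 0.42, 0.0265 and -0.0505 at 3 h, so that the arrays with the treated sample in Cy5 were high and those with it in Cy3 were near 0. At 10 h the synthetases gave the narrowest values, 0.069, 0.11 and 0.081, a mean of 0.0865 ± 0.0208 (SD, n = 3 arrays). Read as Cy5 over Cy3, the values of the Cy3 arrays turn, so that for the synthetases replicate 3 at 10 h becomes -0.081, and the initiation values at 3 h become -0.0935 and -0.349 on replicates 3 and 4.

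**Figure D1:**
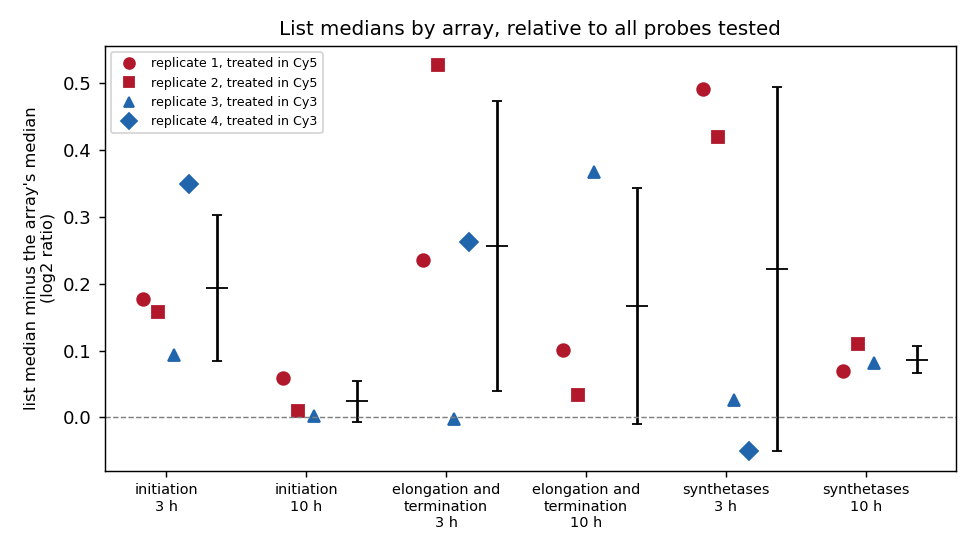
Median log2 ratio of each list less the median of all tested probes on the same array (y axis), by list and time (x axis); points are arrays (red: treated in Cy5, blue: treated in Cy3), and the black bars give the mean and SD over the 4 arrays at 3 h or the 3 arrays at 10 h. The synthetases at 10 h lie between 0.069 and 0.11, while at 3 h they run from -0.0505 to 0.491.

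The members differed from other probes in how their values were made up at 3 h. Of the values of the tested members, 28.0% to 49.1% were small-ratio values on the 3 h arrays. The share was below that of all tested probes on 3 of the 4 arrays, and above it on replicate 2 (49.1% against 46.8%). Of the 56 members 20 had no such value at 3 h (35.7%), against 20.8% of all probes. Among probes without any, the median fitted ratio at 3 h was 0.0847 over the 20 members and -0.162 over all 2403, and among those with 1 or more it was 0.0989 over 36 members and -0.145 over 9156. The members' median was above that of all probes both with and without small-ratio values. The extremes differed: members without such values ran from -0.536 to 0.29, and the rest from -1.44 to 1.69.

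At 10 h many members gave nearly the same ratio on all arrays. For 30 of the 56 the highest and the lowest of 3 values were less than 0.5 apart (53.6%, against 36.5% of all probes), among them 12 of the 15 synthetases, 15 of the 32 initiation probes and 3 of the 9 for elongation and termination. The mean was within 0.5 of 0 for 48 of 56 (85.7%, against 77.2%). The median SD over the arrays was 0.217 for the members at 10 h and 0.723 at 3 h, against 0.358 and 0.767 for all probes. At 10 h 43 of 56 had no small-ratio value (76.8%, against 77.3% of all probes).

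Among cap-binding factors, Eif4e, the cap-binding protein itself, had the highest fitted ratio of any tested member at 3 h. Its probe 2303 read 3.26, 1.19 and 0.90 on replicates 1 to 3 at 3 h and -0.04 and 0.48 on replicates 1 and 3 at 10 h. These 3 h values were all above 0 and above both 10 h values, and all 3 were small-ratio values. The fitted ratio at 3 h was 1.69 ± 0.56 (SE; limma adjusted p = 0.311). On replicate 4 at 3 h the probe had the repeated extreme value, negative on that array, which was treated as not measured. With repeated extreme values kept, the fitted ratio at 3 h was -2.69. The other tested probe of Eif4e, 9144, read 0.55, 0.47, -0.37 and 1.01 at 3 h and 0.07, 0.18 and -0.06 at 10 h, so it was above 0 on 3 of 4 arrays at 3 h and near 0 at 10 h. Both probes were higher at 3 h than at 10 h in the fit, by 1.47 and 0.38, and neither difference passed in limma (adjusted p = 0.68 and 0.836). The 2 Eif4e probes outside the fit had 3 h values from 0.19 to 1.19, each with missing arrays.

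The 4E-binding proteins hold eIF4E away from the ribosome. Probe 15111 of Eif4ebp1 read -0.55, -0.78 and -0.58 on replicates 2 to 4 at 3 h and -0.10, 0.56 and 0.37 at 10 h. The 3 h values were all below the 10 h values, with the smallest SD of any tested member at 3 h (0.13, n = 3), but 2 of them were small-ratio values. Its fitted difference of 0.91 ± 0.45 (SE) had an adjusted p = 0.639 in limma. Probe 7572 of the same gene went the other way, at 2.04, -0.40 and 0.52 at 3 h and -1.95, 1.45 and 0.29 at 10 h, with values on both sides of 0 at each time. Eif4ebp3 read -0.55, -1.23 and 1.07 on replicates 1 to 3 at 3 h and -0.69, -0.75 and 0.67 at 10 h. At both times it was below 0 with the treated sample in Cy5 and above 0 with it in Cy3, and its dye term of -1.67 ± 0.46 (SE) had the smallest p of any tested member's dye term, though not the largest size (limma adjusted p = 0.744).

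The RNA helicases Eif4a1 and Eif4a2, which unwind mRNA at the cap, were spread at 3 h, with means of 0.15 ± 0.83 and -0.31 ± 0.60 (SD, n = 4), and near 0 at 10 h, with -0.02 ± 0.12 and 0.05 ± 0.16 (n = 3). These paralogs are close in sequence, so their probes may share signal. Eif4a3, a related helicase of the exon junction complex, had 0.31 ± 0.97 and 0.21 ± 0.93, and Eif4e2, a relative of Eif4e, had 0.07 ± 0.25 and 0.30 ± 0.47. The scaffold Eif4g3 had 3 tested probes that disagreed. Probe 9703 read -0.29, 0.19, -0.24 and -0.62 at 3 h and -0.02, 0.26 and 0.05 at 10 h. Probe 11352 read -0.55, -1.51, -1.03 and 0.36 at 3 h and 0.22, -3.86 and 1.99 at 10 h. Probe 12293 read 0.45, 0.77, 1.48 and -0.22 at 3 h and 1.25, -3.99 and 0.57 at 10 h. The last 2 probes were very low on replicate 2 at 10 h, where probe 9703 was not, so no single value stands for Eif4g3.

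The eIF3 complex, which bridges the small subunit and the eIF4 proteins, had 8 tested probes of 7 genes. Eif3j1, a loosely bound subunit, had the lowest fitted initiation value at 3 h. It read -1.27, -2.40, 0.22 and -0.48 at 3 h and 0.39, 0.14 and -0.23 at 10 h. It was low on replicates 1 and 2, both with the treated cells in Cy5, and its range overlapped that at 10 h (fitted -0.98 ± 0.39 at 3 h, SE; limma adjusted p = 0.335). Eif3m, another subunit, read -1.36, -2.04 and 0.07 on replicates 1 to 3 at 3 h and -0.98, -0.34 and -0.02 at 10 h. It was below 0 on all arrays at 10 h and low on the same 2 arrays at 3 h as Eif3j1 (fitted -0.91 ± 0.36 at 3 h, SE; limma adjusted p = 0.35).

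Eif3f, a subunit with an MPN domain, read 0.035, 1.48 and 0.52 on replicates 1, 3 and 4 at 3 h and -0.07, -0.47 and -1.19 at 10 h. The groups did not overlap, and it was 1 of 2 members above 0 on every array with a value at 3 h and below 0 on every one at 10 h, a pattern of 3.57% of the members and 1.54% of all probes. Its 3 h values were all small-ratio values, and the fitted difference of -1.25 ± 0.62 (SE) had an adjusted p = 0.639 in limma. Probe 4827 of Eif3l had 1.45, 0.19 and -0.425 on replicates 1 to 3 at 3 h, and -3.43 and -0.42 on replicates 1 and 3 at 10 h. Its fitted value of -1.93 ± 0.85 at 10 h (SE), the lowest of any tested member, rested on replicate 1. Without that array the fit gave 0.204, with a dye term taken from the 3 h arrays, though the 10 h value left was -0.42. The other Eif3l probe, 9141, read 0.27, 0.81, -0.59 and 0.02 at 3 h and had a mean of -0.01 ± 0.30 (SD, n = 3) at 10 h.

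Eif3a, the largest subunit, was above 0 on all 3 arrays at 10 h, at 0.29, 0.12 and 0.38, and at 3 h it read -0.85, -0.55, 0.69 and 0.35. So at 3 h it was below 0 with the treated sample in Cy5 and above 0 in Cy3. Eif3e did the same, with -0.61, -0.62, 0.03 and 0.28 at 3 h and -0.03, 0.04 and 0.24 at 10 h. Eif3h had 0.07, -0.10, -0.10 and 0.55 at 3 h and 0.07, 0.08 and 0.31 at 10 h. Eif3a and Eif3h were thus above 0 on every array at 10 h, as were 3 of the 32 initiation probes in all, the other being Eif2b5. The fitted value of Eif3a at 10 h was 0.40 ± 0.31 (SE; limma adjusted p = 1.0).

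eIF2B reloads eIF2 with GTP and is the step that stress kinases block. Each of its 5 subunits had 1 tested probe. Eif2b4 read 0.25, 0.34, -0.46 and 0.67 at 3 h and 1.03, 0.29 and -0.11 at 10 h, above 0 on 5 of 7 arrays. Eif2b5, the catalytic subunit, read 0.035, 1.77 and 0.52 on replicates 1, 2 and 4 at 3 h and 0.445 and 0.28 on replicates 1 and 3 at 10 h. It was above 0 wherever it was measured, but 4 of those 5 values were small-ratio values. Eif2b1, Eif2b2 and Eif2b3 had means of -0.36 ± 1.19, -0.12 ± 0.49 and 0.15 ± 0.78 at 3 h (SD, n = 4, 4 and 3) and of 0.08 ± 0.11, -0.04 ± 0.06 and 0.01 ± 0.39 at 10 h (n = 3 each). No subunit of eIF2 itself was tested, since Eif2s3x had values on 2 arrays at 3 h.

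Eif2a and Eif2d, which deliver initiator tRNA by routes other than eIF2, had values that split by dye at 3 h. Eif2a read 0.83, 0.475, -1.20 and -1.08 at 3 h and 0.125, 0.15 and -0.06 at 10 h. Eif2d read 1.64, 1.19, -1.54 and -0.60 at 3 h and 0.05, -0.02 and 0.07 at 10 h. At 3 h both were high with the treated sample in Cy5 and low with it in Cy3, while at 10 h both were near 0. Their dye terms were 1.15 ± 0.46 and 1.47 ± 0.62 (SE), each with an adjusted p = 0.783 in limma. Both would be above 0 on 4 of 4 arrays at 3 h if the ratios were Cy5 over Cy3.

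Among the remaining initiation factors, Eif1a, a scanning factor, read -1.19, -0.965, 0.41 and -0.40 at 3 h and -0.11, -0.24 and 0.19 at 10 h (fitted -0.54 ± 0.26 at 3 h, SE; limma adjusted p = 0.413). It was below 0 on 3 of 4 arrays at 3 h. Eif5, which triggers GTP hydrolysis by eIF2, was below 0 on all 3 arrays at 10 h with a mean of -0.28 ± 0.37 (SD), and at 3 h it had -0.48 ± 1.01 (n = 4). Eif5a, whose hypusine residue helps peptide bond formation, had 0.22 ± 0.34 and -0.03 ± 0.11. Eif6, which keeps the ribosomal subunits apart, had 2 probes with 0.16 ± 0.17 and 0.12 ± 0.56 at 3 h (n = 4) and with about 0.00 ± 0.16 and -0.06 ± 0.07 at 10 h (n = 3). The probes of Eif6 differed from each other by less than their SD at both times. No value of either Eif6 probe was a small-ratio value at 3 h.

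**Figure D2:**
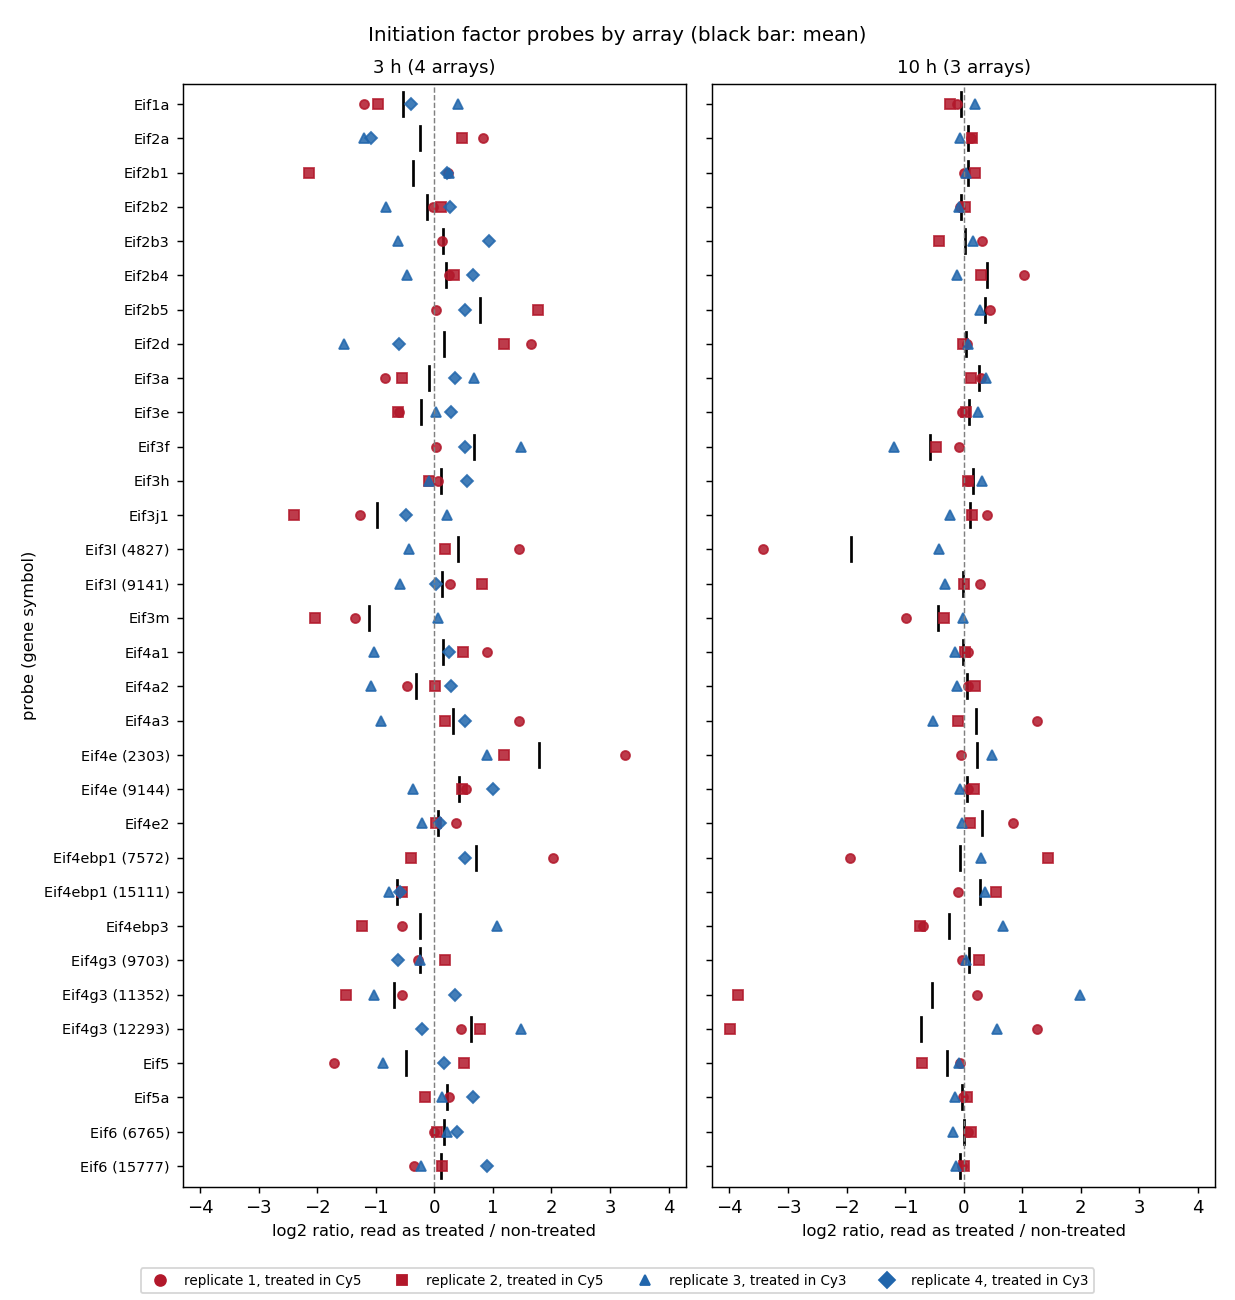
Log2 ratios, read as treated over non-treated (x axis), of the 32 tested initiation probes (y axis; probe numbers where a gene has several) at 3 h and 10 h; each point is an array (red: treated in Cy5, blue: treated in Cy3) and black bars are means. Points spread widely at 3 h and gather near 0 at 10 h for most probes, apart from single arrays such as Eif3l probe 4827 at -3.43 and Eif4g3 probe 12293 at -3.99.

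Elongation and termination genes were measured by 9 tested probes of 8 genes. In the limma fit of all 7 arrays 0 of these probes had an unadjusted p under 0.05 at either time. Of all probes 13.6% did at 3 h and 3.88% at 10 h. With the 10 h arrays fitted alone 3 of the 9 did, Eef1akmt1, Eef1d and Eef2 probe 6473 (33.3%, against 7.2% of all probes). With the 10 h arrays alone 0 passed the adjusted threshold. That fit set a mean and a dye term on at most 3 values, so little of a probe's own spread was left to test against. Eef1d had 2 values at 10 h, and its SE in that fit came from other probes alone. Eef1a1, the main form of the tRNA-carrying factor, had no tested probe, since its 2 probes had values on 2 and 1 arrays at 3 h. Eef1a2, its form of muscle and nerve, read -1.72, 0.67, -1.52 and -0.355 at 3 h and 0.13, -0.19 and -0.38 at 10 h, below 0 on 3 of 4 and 2 of 3 arrays. Eef1a1 and Eef1a2 are close relatives, so probes of one may also take signal from the other, which was not checked.

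The exchange factor of eEF1A is built from Eef1b2, Eef1d and Eef1g. Eef1b2 read -0.40, -0.04, 0.085 and 0.38 at 3 h and 0.295, 0.31 and 0.15 at 10 h. All 3 values at 10 h were above 0 and close together (0.25 ± 0.09, SD, n = 3), and at 3 h the mean was near 0. Eef1g read 0.55, 0.36, -0.55 and 0.80 at 3 h and 0.20, 0.235 and -0.13 at 10 h. It was below 0 at both times on replicate 3 and above 0 on all other arrays. The tested probe of Eef1d read -0.87, 0.45 and -0.77 on replicates 1, 2 and 4 at 3 h, and 0.10 and 2.90 on replicates 1 and 3 at 10 h. Its fitted 1.499 ± 0.73 at 10 h (SE; limma adjusted p = 1.0), the highest of any tested member, rested on replicate 3, and it was -0.178 without that array. The dye term then came from the 3 h arrays, and the 10 h value left was 0.10.

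Eef2, the translocase, had 2 tested probes. Probe 6473 read 0.45, 0.865, 1.01 and 0.20 at 3 h and -1.15, -1.80 and 3.715 at 10 h. It was above 0 on 4 of 4 arrays at 3 h, where 3 of its values were small-ratio values, and at 10 h the Cy5 arrays were low and the Cy3 array was very high. Probe 7882 read 0.67, -1.135 and 0.74 on replicates 1, 2 and 4 at 3 h and -0.97, -0.02 and 1.003 at 10 h, again highest on the Cy3 array. Read as Cy5 over Cy3, the fitted value of probe 6473 at 10 h was -2.5 in place of 0.60, and its adjusted p in limma was 0.395.

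The methyltransferases of eEF1A differed in sign on some arrays. Eef1akmt1 read 0.13, 0.51 and 1.52 on replicates 1, 2 and 4 at 3 h and 0.25, 0.14 and -2.15 at 10 h, so that only replicate 3 at 10 h was below 0. Eef1aknmt read 0.59, -1.27, -1.425 and -0.48 at 3 h and 0.0, 0.34 and 0.61 at 10 h, below 0 on 3 of 4 arrays and then on none. Their fitted differences between the times were -1.31 ± 0.79 and 0.93 ± 0.59 (SE), with adjusted p = 0.675 and 0.681 in limma. Etf1, which reads stop codons, had 0.035, 1.41, -0.10 and -1.065 at 3 h, all small-ratio values, and -0.105, -0.09 and 0.34 at 10 h, and so was near 0 at both times on average (0.07 ± 1.02 and 0.05 ± 0.25, SD).

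**Figure D3:**
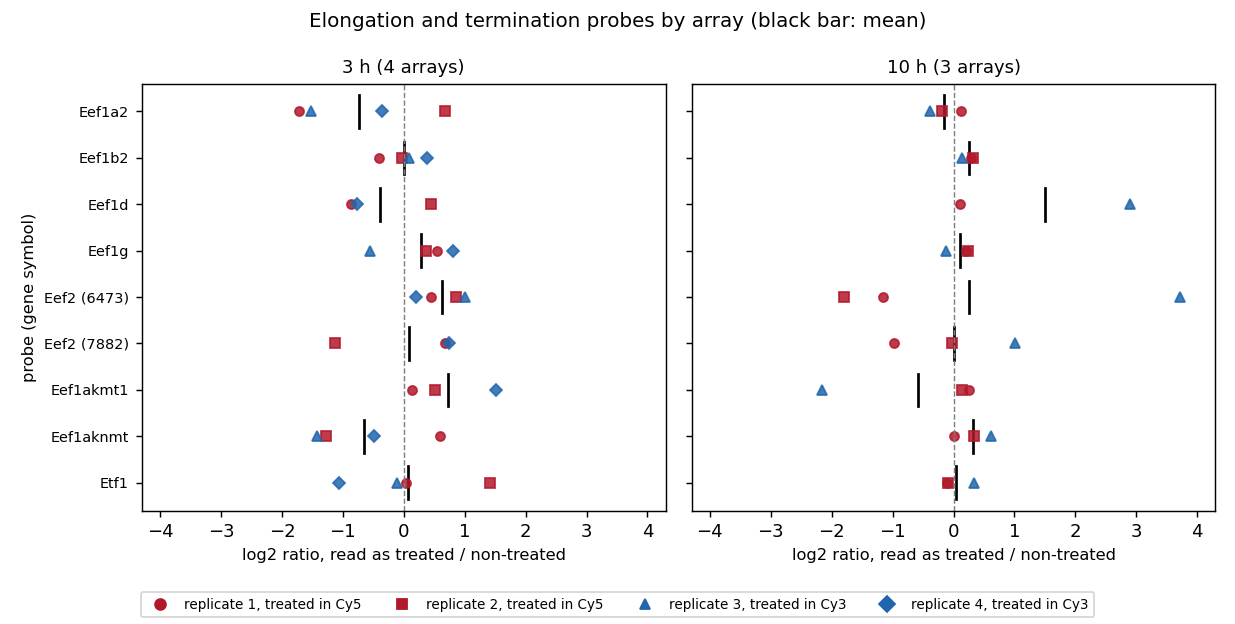
Log2 ratios, read as treated over non-treated (x axis), of the 9 tested elongation and termination probes (y axis) at 3 h and 10 h; each point is an array (red: treated in Cy5, blue: treated in Cy3) and black bars are means. Eef1b2 stays within 0.15 to 0.31 at 10 h, while at 10 h both Eef2 probes are highest on the array with the treated sample in Cy3.

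Among the synthetases, Mars1, the cytosolic methionyl-tRNA synthetase of the multi-synthetase complex, had the smallest p of any tested member at 3 h, at 10 h and in the difference. It read 0.77, 1.41 and 1.70 on replicates 1 to 3 at 3 h, and -1.82 and -0.64 on replicates 1 and 3 at 10 h. All 3 h values were above 0 and all 10 h values below 0, with both dye orientations at each time. The fitted ratio was 1.44 ± 0.34 at 3 h (SE; limma adjusted p = 0.254) and -1.23 ± 0.40 at 10 h (adjusted p = 1.0), and their difference was -2.67 ± 0.53 (adjusted p = 0.569). All 3 values at 3 h were small-ratio values, and the probe was measured on 5 of 7 arrays, with the repeated extreme value on 1 of the others and no value on the last. Mars1 had 1 probe on the array. This order is lost if the ratios are Cy5 over Cy3, since replicate 3 changes sign at both times.

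The other tested enzymes of the multi-synthetase complex had means near 0. Qars, for glutamine, had -0.17 ± 0.25 at 3 h (SD, n = 4) and -0.06 ± 0.07 at 10 h (n = 3). Rars, for arginine, read 0.27, 0.68, -0.80 and -0.38 at 3 h and had a mean of 0.04 ± 0.10 at 10 h. At 3 h Rars was above 0 with the treated sample in Cy5 and below 0 in Cy3. Iars and Kars, also of the complex, were not tested.

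Of the 7 tested cytosolic synthetases outside the multi-synthetase complex, 5 were above 0 on all 3 arrays at 10 h. This held with the ratios read as treated over non-treated. On the Cy5 over Cy3 reading replicate 3 turns, and 0 of the 5 keep 1 sign. Nars, for asparagine, read 0.20, 0.55 and 0.28 at 10 h and 0.39, 0.11, -0.57 and 0.825 at 3 h. Gars, for glycine, whose promoter is printed above, read 0.07, 0.40 and 0.30 at 10 h and 0.79, -0.40, 0.19 and -0.37 at 3 h. Cars, for cysteine, read 0.05, 0.29 and 0.25 at 10 h and 0.52, 0.70, -0.91 and 0.08 at 3 h. These 3 enzymes were above 0 in both dye orientations at 10 h, which on the other reading is a split by dye, and on both sides of 0 at 3 h. Wars, for tryptophan, read 0.14, 0.13 and 0.02 at 10 h and 0.08, 0.31, -0.06 and 0.78 at 3 h. Yars, for tyrosine, read 0.01, 0.05 and 0.32 at 10 h and -0.10, -0.23, 0.67 and 0.58 at 3 h. For all 5 enzymes the mean at 10 h was smaller than the SD at 3 h.

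With the mitochondrial Sars2, at 0.07, 0.285 and 0.17 at 10 h and 0.71, 0.37, -0.32 and 0.48 at 3 h, 6 of 15 synthetase probes were above 0 on every array at 10 h. Over all members it was 11 of 56 (19.6%), and over all probes 16.4%. As Cy5 over Cy3 it was 2 of 15 synthetase probes, of Hars and Iars2, and none of these 6. Over all members it was then 12 of 56 (21.4%), and over all probes 16.2%. The highest of these 6 means, 0.34 ± 0.19 for Nars (SD, n = 3), had a fitted value of 0.32 ± 0.35 (SE) and an adjusted p of 1.0 in limma, where both times share 1 spread. With each time fitted alone, 0 members passed an adjusted p under 0.05 in limma (smallest adjusted p 0.469 at 3 h and 0.665 at 10 h). At an unadjusted p under 0.05, 5 of 56 members passed at 10 h in that fit (8.93%, against 7.2% of all probes), where 1 had passed in the fit of all arrays. They were 3 elongation and 2 initiation probes and no synthetase. Among them Eef1d and Eif3l probe 4827 had 2 values each at 10 h, so their p in that fit rested on the spread of other probes. At 3 h 4 of 56 passed (7.14%, against 10.0%). Hars, for histidine, read 0.37, 0.54, -1.28 and -0.30 at 3 h and had 0.14 ± 0.15 at 10 h. Vars, for valine, had -0.28 ± 1.07 and 0.09 ± 0.25, its 3 h values running from -1.81 on replicate 2 to 0.50 on replicate 1.

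Mitochondrial synthetases differed among themselves and among their probes. Iars2, for isoleucine, had 6 probes, of which 3 were tested. Probe 1354 read -0.44, -2.91 and -1.48 on replicates 1, 3 and 4 at 3 h and 0.18, 0.14 and -0.17 at 10 h. Probe 19725 read 0.62, -1.03 and -0.84 on replicates 1, 2 and 4 at 3 h and 0.25, -0.14 and 0.20 at 10 h. Probe 5866 read 1.19, 0.90 and -0.48 on replicates 2 to 4 at 3 h and -0.385, -3.12 and 0.06 at 10 h. Probe 1354 was below 0 on every 3 h array with a value (fitted -1.44 ± 0.42, SE; limma adjusted p = 0.268), but probe 5866 was above 0 on 2 of 3. So the probes of Iars2 disagreed in sign at both times. Mars2, for methionine, read 0.06, 0.63, -1.48 and -0.56 at 3 h and -0.555, 0.275 and -0.70 at 10 h. Where the cytosolic Mars1 was above 0 at 3 h on replicate 3, Mars2 had its lowest value. On replicates 1 and 2 at 3 h both genes were above 0, and on replicates 1 and 3 at 10 h both were below 0.

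**Figure D4:**
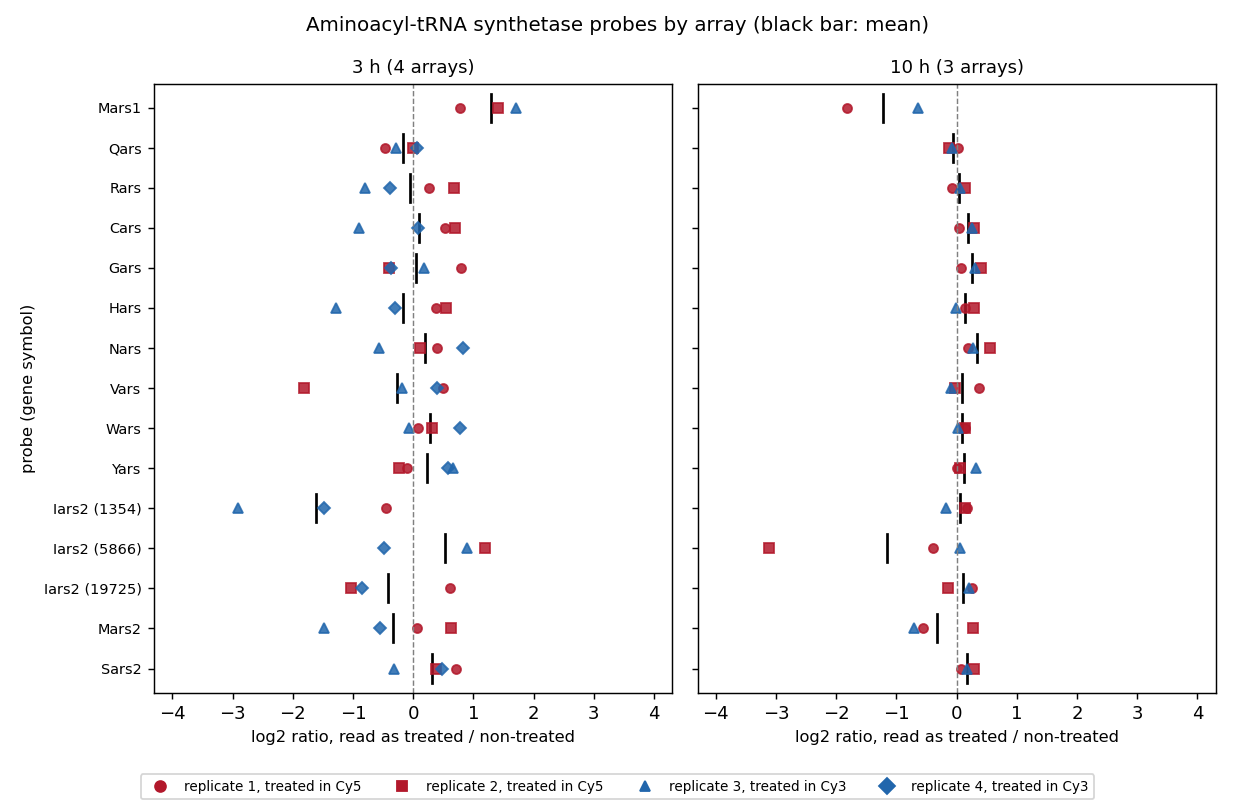
Log2 ratios, read as treated over non-treated (x axis), of the 15 tested synthetase probes (y axis; probe numbers where a gene has several) at 3 h and 10 h; each point is an array (red: treated in Cy5, blue: treated in Cy3) and black bars are means. At 10 h 12 of the 15 probes span less than 0.5, and Mars1 is above 0 on every array with a value at 3 h and below 0 at 10 h.

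The last comparison set the ratios at 10 h against those at 3 h. Across the members the fitted difference of 10 h minus 3 h had a median of -0.0024, with 28 of 56 above 0 (50.0%), against a median of 0.143 and 58.3% for all probes. It was 0.01 for initiation, -0.0341 for elongation and termination and 0.0009 for the synthetases. None of the members was below 0 on every array at 3 h and above 0 on every array at 10 h, a pattern that 3.07% of all probes showed. With each array centred on its median the difference over all probes was 0.132, and over the members -0.0137. As Cy5 over Cy3 it was -0.0312 over all probes and -0.0882 over the members, with 24 of 56 above 0 (42.9%, against 48.0%).

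**Figure D5:**
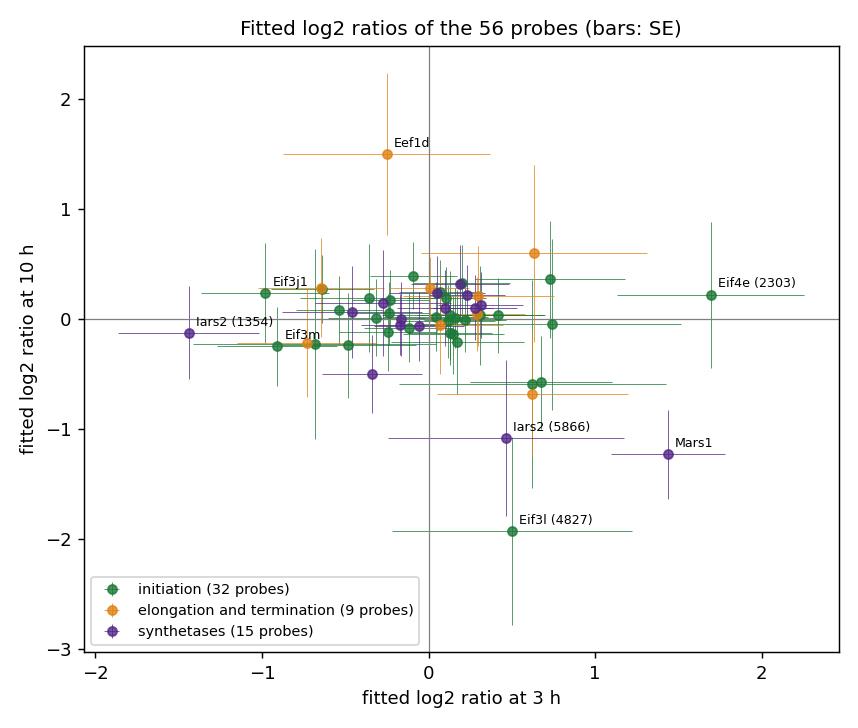
Fitted log2 ratio at 3 h (x axis) against that at 10 h (y axis) for the 56 tested probes, coloured by list, with bars for the standard error of the fit; probes beyond 0.9 in either direction are named. Most probes lie near 0 on both axes, and Mars1 (1.44 and -1.23) and Eif4e probe 2303 (1.69 and 0.22) lie farthest to the right.

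Some members split by dye orientation. At 3 h 13 of 56 had 1 sign on every array with the treated sample in Cy5 and the other sign on every array with it in Cy3 (23.2%, against 18.0% of all probes). At 10 h it was 19 of 56 (33.9%, against 28.4%). At 3 h 7 of 56 were above 0 in Cy5 and below 0 in Cy3 (12.5%, against 10.9%): Eif2a, Eif2d, Etf1, Hars, Mars2, Rars and probe 4827 of Eif3l. The reverse held for 6 of 56 (10.7%, against 7.1%): Eef1b2, Eif3a, Eif3e, Eif3m, Eif4ebp3 and Yars. Read as Cy5 over Cy3, these 13 have 1 sign on all arrays with a value at 3 h. At 10 h 12 of 56 were above 0 in Cy5 only (21.4%, against 15.2%) and 7 in Cy3 only (12.5%, against 13.2%). The fitted dye term was above 0 for 27 of 56 (48.2%, against 50.2%). With limma, 0 of the 56 dye terms passed an adjusted p under 0.05, and 3 had an unadjusted p under 0.05 (5.36%, against 6.33% of all probes), namely Eif2a and Eif2d above 0 (3.57%, against 2.96%) and Eif4ebp3 below 0 (1.79%, against 3.37%). Whether dye or direction sets these signs cannot be told apart from the labels.

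Of the 39 member probes that were not tested, 17 were for initiation, 8 for elongation and termination and 14 for synthetases. For 19 genes no probe was tested. They were Eif1ax, Eif1b, Eif2s3x, Eif3b, Eif3c, Eif3i, Eif3k, Eif4g2 and Eif5b among the initiation factors, Eef1a1, and the synthetases Aars, Fars2, Farsb, Iars, Kars, Sars, Tars, Tars2 and Vars2. Aars and Tars, whose promoters hold the ATF4 core, were among them. Aars read 1.62 and -2.40 on replicates 1 and 2 at 3 h and -0.74, 0.03 and 0.74 at 10 h, with no common sign. Of the 2 Tars probes, 17680 read -0.63, 0.43 and 0.68 at 10 h and 7429 read -1.015, 2.41 and 4.715, both below 0 on replicate 1 and above it on the others.

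Partners of these factors were followed by a list of 47 cytosolic regulators, of which 33 probes of 24 genes were tested, and of 9 mitochondrial factors, with 6 probes of 5 genes. In limma 0 of them passed in either direction at 3 h, at 10 h or in the difference. The cytosolic list had a median of 0.0522 at 3 h with 18 of 33 above 0 and of -0.0345 at 10 h with 13 of 33 above 0. Over all tested probes the median was -0.149 at 3 h with 38.6% above 0 and -0.0245 at 10 h with 46.5% above 0. The mitochondrial list had 0.00654 and -0.075. Atf4, the factor that acts on synthetase genes, had 2 tested probes. The first read -0.12, 0.585, 0.995 and 0.52 at 3 h and 0.14, -0.265 and -0.03 at 10 h. The other read 0.45, 0.55 and 0.63 on replicates 1 to 3 at 3 h and -0.555, -0.16 and 0.69 at 10 h. Both were above 0 on most 3 h arrays and on both sides of 0 at 10 h, with adjusted p = 0.437 and 0.427 at 3 h in limma. Eif2ak2, a kinase that blocks eIF2, read -0.65, -2.40, -0.37 and -0.48 at 3 h, below 0 on 4 of 4 arrays (limma adjusted p = 0.315), and 0.21, -0.22 and -0.24 at 10 h. Another Eif2ak2 probe, with too few values to be tested, read 0.77, -0.69 and 0.52 on replicates 2 to 4 at 3 h and so was above 0 on 2 of 3 arrays. Gfm2, of the mitochondrial list, was below 0 wherever it was measured, at -1.455, -1.325 and -0.48 on replicates 1, 3 and 4 at 3 h and at -2.245, -1.09 and -1.08 at 10 h. Its adjusted p-values in limma were 0.28 at 3 h and 1.0 at 10 h.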

How the data were processed

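RNA of NIH3T3 cells, treated or not, was labelled in Cy3 or Cy5 and 1 sample of each hybridised to an array, per the labels' protocols, which also speak of organs and a pool of control animals; the source names were followed. The authors deposited 1 table of log2 ratios (7 arrays). The base was read from the values. For scanner, background correction and scaling by the authors: not given in the sources used here. Values over 15 in size were treated as missing. Small-ratio values were counted with a tolerance of 0.0016. Probes were named through the platform annotation. limma 3.58.1 in R 4.3.3 (lmFit, eBayes) fitted a mean for each time and a dye-orientation term to all 11559 tested probes, two-sided, with Benjamini-Hochberg adjustment over all of them and a threshold of 0.05. The fit was tested on simulated data. Ratios were tested against 0, so the control's own spread is not part of the test. No centring was added. Fitted values carry an SE, means an SD. The number of arrays limits the precision. Values on each array are given for the 5 smallest p of each list in each comparison, all elongation probes and genes whose probes differ in sign; others named were chosen after their values were seen. The members and lists were chosen with earlier results of these data known. Same-numbered arrays of the 2 times deviated from their group means with a correlation of 0.0282, 0.0315 and 0.0913, so the numbers were not taken as pairs.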

Additional observations from a re-analysis of the deposited data

How the results depend on the processing

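Of the recomputed counts and group medians 223 stayed within their limits and 12 moved, and of the values of single genes and promoters 604 kept their direction, 36 reversed and 1 moved. Read as Cy5 over Cy3, the elongation and termination median at 10 h was -0.0129 and that of the synthetases 0.0185. On that reading the 3 h values of Eif4ebp1, Eef1a2, Eef1aknmt, Eef1akmt1, Iars2 probe 1354, Mars2 and Wars turned to 0.217, 0.206, 0.305, -0.285, 1.09, 0.683 and -0.0823. At 10 h Eif3f, Eif3a, Eef1d, Eef1akmt1, Eef2 probe 6473, Eef1aknmt, Mars2 and Yars turned to 0.254, -0.00885, -1.4, 0.858, -2.5, -0.0129, 0.264 and -0.154. The differences of Eif4ebp1, Eif3f, Eef1d, Eef1akmt1, Eef1aknmt, Iars2 probe 1354 and Iars2 probe 19725 turned to -0.137, 0.945, -1.39, 1.14, -0.318, -0.712 and -0.173. With the repeated extreme values kept as measurements, 1 member passed at 3 h (Eif3k, adjusted p 0.0439 in limma), 6 of all probes passed, the initiation median at 3 h was -0.119, and the 10 h medians were 0.0469 for elongation and termination and -0.025 for the synthetases. Eif4e probe 2303 then read -2.69 at 3 h and 2.91 in the difference, and Mars1 3.98 at 10 h and 3.29 in the difference. Without the filter on missing values the elongation and termination median at 3 h was 0.45. The cause of these shifts was not tested.

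Leaving out 1 array at a time, 0 members passed in each comparison. The 3 h medians ran from -0.0639 to 0.195 for initiation, from -0.0199 to 0.133 for elongation and termination and from -0.0612 to 0.122 for the synthetases, so each crossed 0. The 10 h medians ran from -0.0213 to 0.116 for initiation, from -0.134 to 0.26 for elongation and termination and from -0.262 to 0.0896 for the synthetases, and the elongation and termination difference from -0.122 to 0.395. Without replicate 3 at 10 h the 10 h medians were 0.116, -0.134 and -0.262. Replicate 3 was the only 10 h array with the treated sample in Cy3, so that fit took its dye term from the 3 h arrays. On replicates 1 and 2 at 10 h the medians of the values themselves were 0.059 and 0.037 for initiation. They were 0.101 and 0.06 for elongation and termination and 0.069 and 0.137 for the synthetases. At 10 h the fitted value ran from -4.06 to 0.204 for Eif3l probe 4827, from -0.83 to 0.213 for Eif3f, from -0.178 to 3.18 for Eef1d, from -1.01 to 0.797 for Eef1akmt1, from -1.5 to 1.28 for Eef2 probe 6473 and from -0.134 to 0.478 for Eef1aknmt. The difference ran from -4.25 to 0.007 for Eif3l probe 4827, from -0.0757 to 1.12 for Eef1a2 and from -0.261 to 0.894 for Vars. Eef1akmt1 at 3 h ran from -0.856 to 1.01. Within 100 bases of the start 1.54% of all promoters held the core.

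With the replicate number as a block, 0 members passed in limma, with the smallest adjusted p at 0.243, 1.0 and 0.686 for 3 h, 10 h and the difference. With each time fitted alone no difference can be had. Medians over probes without small-ratio values at 3 h, an alternative chosen after seeing the data, were 0.106 for initiation and -0.112 for the synthetases at 3 h. Only 3 or 4 arrays a time, with a median SD of 0.723 for the members at 3 h, limit what could be detected.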
